A study of Homo sapiens with 4 samples.

Results

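The genes of synaptic vesicles and of the presynaptic release machinery were examined in BE(2)C cells with and without knockdown of MYCN. The set was a list of 47 gene symbols, chosen by name with earlier results of these data known. All 47 were found among the 26364 genes that each sample listed. Of these, 36 had a mean RPKM (read count scaled by gene length and by the total of reads) of at least 1 over the 4 samples and were tested, and 11 lay below that level. BE(2)C is a human neuroblastoma cell line in which the MYCN gene is amplified, and every sample came from this 1 line. Control cells (Ctrl, 2 samples) received a non-targeting siRNA, and knockdown cells (MYCN KD, 2 samples) received an siRNA against MYCN. Both were carried in with a Lipofectamine reagent, at 80 nM siRNA for 6 h by the sample labels (the study's methods give a lower concentration), and RNA was taken on the following day. The study's methods speak of biological replicates, but neither they nor the labels say whether these were separate cultures, so the p-values measure the spread between these samples, which may be technical.

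A presynaptic terminal stores transmitter in small vesicles, holds them near the membrane through synapsins and active zone scaffolds, and fuses them when calcium enters. Fusion is carried out by SNARE proteins, is timed by synaptotagmins and complexins, and is followed by retrieval of the vesicle membrane through clathrin and dynamin. Neuroblastoma arises from the sympathoadrenal lineage, whose mature cells release catecholamines from vesicles with the same machinery.

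RPKM of MYCN, the targeted gene, was 1067.9 and 1073.0 in Ctrl against 720 and 718 in MYCN KD (log2 fold change -0.57, standard error [SE] 0.0286, adjusted p = 0.00361 by limma). The ratio of mean RPKM was 0.672. Between 29055819 and 34142988 reads stood behind each sample, and the tested members rested on 19 to 39637 reads per sample. Replicate 1 deviated from its group mean in opposite directions in Ctrl and in MYCN KD at 36 of 36 tested members. The same held at 99.4% of all tested genes, so the 2 spreads were not independent of each other. The limma fit treats them as independent, so its standard errors and adjusted p-values may be too small. Over all tested genes, 25.3% passed the test as higher after knockdown and 22.8% as lower. Adrenergic neuroblastoma markers were abundant, with 10 of 10 tested. Their summed RPKM was 3256.0 to 3569.3 in Ctrl and 4503.8 to 4934.9 in MYCN KD. Of these markers 5 passed the test as higher after knockdown and 2 as lower (0 lower when Ctrl replicate 1 or 2 or MYCN KD replicate 1 or 2 was left out), and their part in the results on the presynaptic genes was not tested.

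Promoter sequences are shown for the 4 tested members with at least 1 of 3 short motifs, looked up on both strands. CACGTG is the E-box bound by MYCN with its partner MAX. GGACAGCG comes from the RE1 element bound by REST, a repressor of neuronal genes. TGACGTCA is the cyclic AMP response element. The RefSeq windows (GRCh38.p14) run from 250 bases before to 50 after a gene's start, and 37 of the 47 members had 56 windows, some of them overlapping. Each sequence is written 5′ to 3′ on the strand of the gene, and capitals mark the motif on either strand.
RPH3A, chr12:112791498-112791797, plus strand: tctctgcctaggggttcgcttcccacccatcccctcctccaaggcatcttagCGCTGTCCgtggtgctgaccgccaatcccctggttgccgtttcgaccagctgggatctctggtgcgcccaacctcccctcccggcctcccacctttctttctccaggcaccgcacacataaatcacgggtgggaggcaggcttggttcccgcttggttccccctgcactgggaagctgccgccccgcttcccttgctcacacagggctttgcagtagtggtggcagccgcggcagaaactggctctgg
BSN, chr3:49554227-49554526, plus strand: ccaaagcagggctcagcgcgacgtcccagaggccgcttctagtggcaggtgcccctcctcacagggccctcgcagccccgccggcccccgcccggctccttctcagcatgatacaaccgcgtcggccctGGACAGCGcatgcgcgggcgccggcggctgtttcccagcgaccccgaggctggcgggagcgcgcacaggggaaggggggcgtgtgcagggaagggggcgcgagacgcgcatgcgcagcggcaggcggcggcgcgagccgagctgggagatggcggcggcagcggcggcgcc
UNC13A, chr19:17688305-17688604, minus strand: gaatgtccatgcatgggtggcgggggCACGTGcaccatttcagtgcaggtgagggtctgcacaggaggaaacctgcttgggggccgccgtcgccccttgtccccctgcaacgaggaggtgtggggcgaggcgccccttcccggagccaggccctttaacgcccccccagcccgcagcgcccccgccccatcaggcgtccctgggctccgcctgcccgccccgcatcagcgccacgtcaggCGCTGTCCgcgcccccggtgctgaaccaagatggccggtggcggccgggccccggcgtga
SYN1, chrX:47619808-47620107, minus strand: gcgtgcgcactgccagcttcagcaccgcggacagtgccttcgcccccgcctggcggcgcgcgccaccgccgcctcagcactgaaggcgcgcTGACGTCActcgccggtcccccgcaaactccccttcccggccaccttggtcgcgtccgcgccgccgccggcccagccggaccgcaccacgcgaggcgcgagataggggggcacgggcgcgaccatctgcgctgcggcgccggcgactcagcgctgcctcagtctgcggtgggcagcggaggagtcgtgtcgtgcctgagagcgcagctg

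CACGTG occurred in 1 of the 56 member windows (1.79%), that of UNC13A, against 7.26% of all 35116 windows and 9.74% of the windows of tested genes. GGACAGCG occurred in 4 member windows (7.14%), 2 of them overlapping windows of RPH3A and 1 each of BSN and UNC13A, against 1.63% of all windows and 2.24% of those of tested genes. TGACGTCA occurred in 2 member windows (3.57%), those of SYN1 and SH3GL2, against 1.85% and 3%. With so few windows these shares are descriptions only. Only exact matches were counted, and the SYN1 window holds ggacagtg, which differs from GGACAGCG by 1 base. GGACAGCG is only a part of the RE1 element, so neither a match nor its absence tells whether a window holds the whole element. The members with GGACAGCG did not move alike: RPH3A and BSN were higher in MYCN KD and UNC13A was not called.

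Transcripts of the presynaptic set were mostly more abundant after MYCN knockdown. Tests were made with limma on log2(RPKM + 1), with Benjamini-Hochberg adjustment over all 11411 tested genes, and a gene was called at an adjusted p under 0.05. By this rule 23 of the 36 tested members were higher in MYCN KD (63.9%), against 25.3% of all tested genes, and 2 were lower (5.56%), against 22.8% of all tested genes. The other 11 were not called. The median log2 fold change of the 36 was 0.38, with quartiles of 0.11 and 0.63, and that of all tested genes was 0.026, with quartiles of -0.23 and 0.29. Both MYCN KD values lay above both Ctrl values in 27 members (40.4% of all tested genes did so) and below them in 4 (35.8% of all tested genes), and the groups overlapped in 5. SYNGR3 and NRXN2 passed the filter only through their MYCN KD values. Without them 21 of 34 members were higher with a median of 0.38, beside 24.1% of the 11118 genes with a Ctrl mean of at least 1. Summed over all 47 genes, RPKM was 915 and 904 in Ctrl against 1151.5 and 1159.3 in MYCN KD. In bulk RNA, a larger share of cells of one kind and more RNA per cell cannot be told apart.

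The count of members higher was 17 to 20 when any single sample was left out, a fit in which the lone sample of a group is assumed to vary like the other group. The count of members lower was 2, and it was 1 without Ctrl replicate 2 or MYCN KD replicate 2 and 3 without Ctrl replicate 1 or MYCN KD replicate 1. An exact permutation test cannot give a two-sided p under 0.3333 with 2 samples a group, so single genes rest on the spread that limma shares across genes. The 47 genes lay on 19 chromosomes, with at most 5 on any of them.

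**Figure D1:**
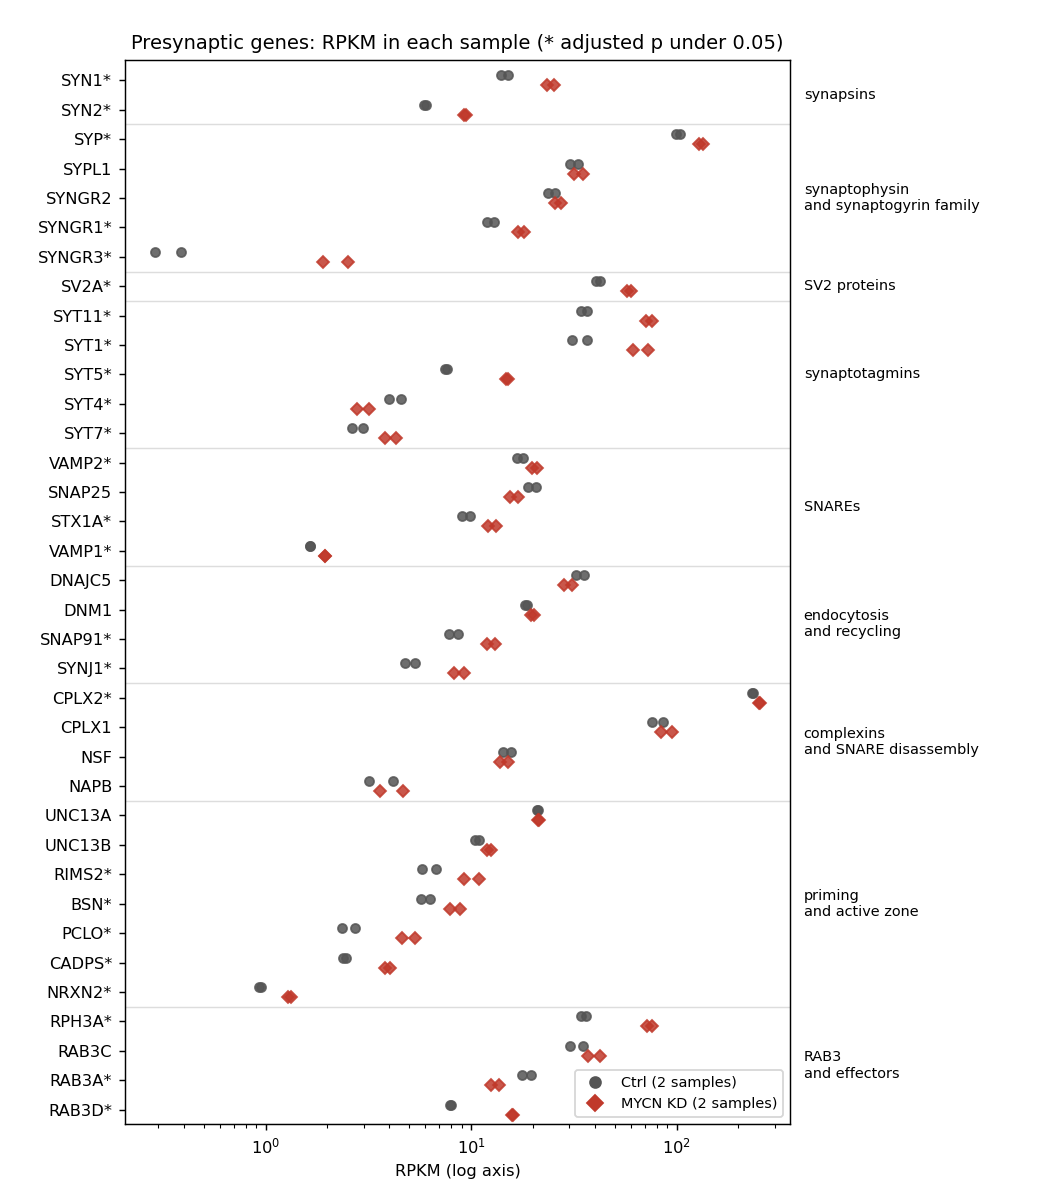
RPKM (log axis) of the 36 tested presynaptic genes in each sample, grouped by role, with grey circles for the 2 Ctrl samples and red diamonds for the 2 MYCN KD samples. An asterisk marks the 25 genes with an adjusted p under 0.05, and SYNGR3 has the widest gap between the groups.

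The synapsins, phosphoproteins that tether vesicles to each other and to actin, were both higher where they could be tested. SYN1 (chromosome X, 47431300 to 47479256 of GRCh37), whose promoter with TGACGTCA is shown above, had RPKM of 15.2 and 14 in Ctrl against 23.3 and 25.3 in MYCN KD. The groups were well apart, with a log2 fold change of 0.70 (SE 0.0687, adjusted p = 0.00732 by limma). SYN2 (chromosome 3, 12045862 to 12233532) had 6.02 and 5.88 in Ctrl against 9.23 and 9.44 in MYCN KD (log2 fold change 0.57, adjusted p = 0.00476 by limma). SYN1 made up 71.0% of the synapsin RPKM in Ctrl and 72.2% in MYCN KD, so the balance of the pair hardly moved. SYN3 had 0 to 2 reads in each sample. The sum of the family was 20.6 ± 0.941 RPKM in Ctrl and 33.6 ± 1.5 in MYCN KD (SD, n = 2). TIMP4 lies within SYN2 on the opposite strand and shares 170 exonic bases with it, but had at most 0.0538 RPKM in any sample.

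Among the membrane-spanning proteins of the vesicle, the neuronal forms were higher and the broadly expressed relatives were not called. SYP, synaptophysin, a long-used marker of neuroendocrine cells (chromosome X, 49044268 to 49056677), had RPKM of 104 and 99.0 in Ctrl against 129 and 135 in MYCN KD (log2 fold change 0.38, SE 0.0475, adjusted p = 0.0111 by limma). SYNGR1 had 12.9 and 12 in Ctrl against 17 and 18.1 in MYCN KD (log2 fold change 0.46, adjusted p = 0.0114 by limma). SYNGR3, a neuronal synaptogyrin (chromosome 16, 2039661 to 2044276), had 0.386 and 0.290 in Ctrl against 1.91 and 2.52 in MYCN KD. It had the largest log2 fold change of the tested members, 1.26 (SE 0.116, adjusted p = 0.00662 by limma), a 6.57-fold ratio of mean RPKM. Its mean RPKM in Ctrl was 0.338, so it passed the filter and was tested only through its MYCN KD values. These values rest on few reads, 27 and 19 in Ctrl against 114 and 160 in MYCN KD, and SYNGR3 made up only 4.77% of the synaptogyrin RPKM in MYCN KD, up from 0.896%.

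SYNGR2, the synaptogyrin of non-neuronal cells, had RPKM of 25.7 and 23.8 in Ctrl against 25.5 and 27.5 in MYCN KD, with overlapping groups and a log2 fold change of 0.09 (adjusted p = 0.289 by limma). It remained the most abundant synaptogyrin, at 65.9% of the family in Ctrl and 57.3% in MYCN KD. SYPL1, the synaptophysin relative found in many tissues, had 30.2 and 33.2 in Ctrl against 34.9 and 31.8 in MYCN KD (log2 fold change 0.07, adjusted p = 0.501 by limma). Of the SV2 glycoproteins of the vesicle membrane, SV2A carried nearly all the RNA. SV2A (chromosome 1, 149874870 to 149889396), the binding site of the antiepileptic levetiracetam, had 42.6 and 40.4 in Ctrl against 57.4 and 60.3 in MYCN KD (log2 fold change 0.50, SE 0.0499, adjusted p = 0.00759 by limma). SV2B was at 0 in every sample and SV2C had 5 to 9 reads.

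The synaptotagmins, calcium sensors and related proteins of the vesicle membrane, held 3 of the larger changes. SYT11 (chromosome 1, 155829358 to 155854990), which lacks calcium binding and restrains membrane retrieval, had RPKM of 34.1 and 36.7 in Ctrl against 75.8 and 70.6 in MYCN KD. The samples of the groups were far apart, and the log2 fold change was 1.03 (SE 0.0624, adjusted p = 0.00422 by limma), a 2.07-fold ratio. SYT1 (chromosome 12, 79257773 to 79845788), the sensor of fast release, had 31.0 and 36.7 in Ctrl against 72.5 and 61.5 in MYCN KD (log2 fold change 0.96, SE 0.129, adjusted p = 0.0125 by limma). SYT5, found on dense-core vesicles, had 7.65 and 7.49 in Ctrl against 14.8 and 15.1 in MYCN KD (log2 fold change 0.89, SE 0.0394, adjusted p = 0.00359 by limma). Replicate values of SYT5 lay closer together than those of SYT1 although its level was lower.

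SYT7 and SYT4 changed less and were on the edge of the threshold. SYT7, the slow sensor of asynchronous release, had RPKM of 2.99 and 2.63 in Ctrl against 3.80 and 4.29 in MYCN KD (log2 fold change 0.41, adjusted p = 0.0295 by limma), and 0.34 with an adjusted p of 0.0514 without MYCN KD replicate 2 (range over the alternatives 0.00424 to 0.0887). SYT4, a relative of SYT11, was the only synaptotagmin of the list called lower, with 3.98 and 4.54 in Ctrl against 3.18 and 2.80 in MYCN KD. The resulting log2 fold change was -0.40 (SE 0.0870, adjusted p = 0.0343 by limma). SYT4 was not called without Ctrl replicate 2 (adjusted p = 0.0644) or MYCN KD replicate 2 (adjusted p = 0.0656), nor with each sample set to the same total (adjusted p = 0.0635), within a range of 0.0043 to 0.0656 over all alternatives. SYT11 exceeded SYT4 by 8.58-fold and 8.09-fold in the Ctrl samples and by 23.8-fold and 25.2-fold in the MYCN KD samples. SYT13 had 1 to 3 reads. The summed synaptotagmin RPKM was 79.8 and 88.0 in Ctrl against 170 and 154 in MYCN KD.

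The SNARE proteins, which zip vesicle and plasma membrane together, moved little next to the synaptotagmins. SNAP25, a SNARE of the plasma membrane, had RPKM of 18.9 and 20.8 in Ctrl against 16.9 and 15.4 in MYCN KD. Both MYCN KD values lay below both Ctrl values, but the log2 fold change of -0.28 was not called (SE 0.0757, adjusted p = 0.0533 by limma). It passed the threshold without Ctrl replicate 1 (adjusted p = 0.0273) or MYCN KD replicate 1 (adjusted p = 0.0355), and its adjusted p ranged from 0.0273 to 0.199 over the alternatives. STX1A, syntaxin-1A, the partner of SNAP25, had 9.84 and 8.99 in Ctrl against 12.1 and 13.2 in MYCN KD (log2 fold change 0.39, adjusted p = 0.0239 by limma), and an adjusted p of 0.0592 without MYCN KD replicate 2 (range 0.0054 to 0.0592). The log2 fold changes of these partners thus had opposite signs. VAMP2, a vesicle SNARE with 91.3% of the VAMP1 and VAMP2 RPKM in both groups, had 17.8 and 16.8 in Ctrl against 19.8 and 20.9 in MYCN KD. The resulting log2 fold change was 0.22 (adjusted p = 0.0440 by limma). VAMP1 had 1.65 and 1.64 in Ctrl against 1.94 and 1.94 in MYCN KD (log2 fold change 0.15, adjusted p = 0.0388 by limma). Neither call held when a sample was dropped: leaving out any of Ctrl replicates 1 and 2 or MYCN KD replicates 1 and 2 gave adjusted p-values of 0.373 to 0.396 for VAMP1 and 0.101 to 0.300 for VAMP2. Over all alternatives the adjusted p ranged from 0.0277 to 0.589 for VAMP1 and from 0.017 to 0.300 for VAMP2. With a sample dropped their log2 fold changes were 0.15 to 0.16 for VAMP1 and 0.18 to 0.26 for VAMP2, near those of all 4 samples. TAPBPL shares 339 exonic bases with VAMP1 on the opposite strand and had 6.96, 6.02, 9.48 and 10.9 RPKM in the same order. The strand setting of the read counting is not given in the sources used here, so its part in the VAMP1 values was not tested.

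Complexins clamp the assembled SNARE complex until calcium enters, and CPLX2 was the most abundant transcript of the set. CPLX2 (chromosome 5, 175223313 to 175311024) had RPKM of 235 and 233 in Ctrl against 253 and 255 in MYCN KD. The log2 fold change of 0.12 was small and just past the threshold (SE 0.0297, adjusted p = 0.0480 by limma), and was not called when Ctrl replicate 1 or 2 or MYCN KD replicate 1 or 2 was left out (adjusted p from 0.397 to 0.465, within 0.00696 to 0.533 over all alternatives). CPLX1 had 86.0 and 75.9 in Ctrl against 83.7 and 94.5 in MYCN KD, with overlapping groups (log2 fold change 0.14, adjusted p = 0.316 by limma). NSF, the ATPase that takes spent SNARE complexes apart, had 14.3 and 15.6 in Ctrl against 15.1 and 13.9 in MYCN KD, and its log2 fold change of -0.04 was not called (adjusted p = 0.661 by limma). NAPB, which brings NSF to the SNARE complex, had 3.18 and 4.16 in Ctrl against 4.66 and 3.60 in MYCN KD (log2 fold change 0.14, adjusted p = 0.530 by limma). The sign of NSF and of NAPB changed with the sample left out. Of these 4 genes only CPLX2 was called.

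Priming factors and the scaffolds of the active zone, where vesicles dock, split between steady and higher transcripts. UNC13A (chromosome 19, 17712145 to 17799174), the main Munc13 priming factor, was the steadiest member, with RPKM of 21.0 and 21.2 in Ctrl against 21.4 and 21.2 in MYCN KD. The resulting log2 fold change was 0.01 (SE 0.0346, adjusted p = 0.747 by limma), and its promoter was the one member window with CACGTG. UNC13B had 10.5 and 10.9 in Ctrl against 12.5 and 12 in MYCN KD, and its log2 fold change of 0.18 narrowly missed the threshold (adjusted p = 0.0516 by limma). The adjusted p of UNC13B was under 0.05 in 4 of 11 alternatives, within a range of 0.0438 to 0.430. CADPS, which primes dense-core vesicles (chromosome 3, 62384021 to 62861091), had 2.47 and 2.37 in Ctrl against 3.83 and 4.01 in MYCN KD (log2 fold change 0.52, SE 0.0455, adjusted p = 0.00618 by limma).

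Among the scaffolds, PCLO, the giant protein piccolo (chromosome 7, 82383328 to 82792246), had RPKM of 2.36 and 2.71 in Ctrl against 5.31 and 4.63 in MYCN KD (log2 fold change 0.75, SE 0.0912, adjusted p = 0.0103 by limma). BSN, bassoon, its partner (chromosome 3, 49591910 to 49708982), had 6.34 and 5.68 in Ctrl against 7.93 and 8.83 in MYCN KD (log2 fold change 0.42, adjusted p = 0.0275 by limma), and an adjusted p of 0.0529 without MYCN KD replicate 2 (range 0.00359 to 0.0538). BSN gave 70.3% of the summed RPKM of the pair in Ctrl and 62.8% in MYCN KD. RIMS2, which links RAB3 and Munc13 at the active zone, had 5.77 and 6.78 in Ctrl against 10.9 and 9.28 in MYCN KD (log2 fold change 0.61, SE 0.115, adjusted p = 0.0254 by limma). It gave 99.6% of the RIMS1 and RIMS2 RPKM in Ctrl and 99.7% in MYCN KD. NRXN2, a presynaptic adhesion molecule near the filter, had 0.926 and 0.951 in Ctrl against 1.33 and 1.29 in MYCN KD (log2 fold change 0.25, adjusted p = 0.0142 by limma). NRXN2 was not called without Ctrl replicate 1 or 2 or without MYCN KD replicate 1 or 2 (adjusted p from 0.0754 to 0.122, within 0.0136 to 0.199 over all alternatives). The remaining genes of this group were hardly read: RIMS1 had 8 or 9 reads per sample, ERC2 3 to 5, CADPS2 0 to 3 and DOC2B 10 to 26.

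RAB3 proteins are small GTPases that ride on vesicles, and their genes moved in opposite directions. RAB3A (chromosome 19, 18307594 to 18314852), the classic neuronal form, had RPKM of 19.5 and 17.7 in Ctrl against 12.5 and 13.7 in MYCN KD. It was lower in MYCN KD in both samples, with a log2 fold change of -0.48 (SE 0.0788, adjusted p = 0.0191 by limma), a ratio of 0.704. RAB3D (chromosome 19, 11432744 to 11456946), best known from exocrine and endocrine granules, had 7.94 and 8.01 in Ctrl against 16.0 and 15.9 in MYCN KD. The resulting log2 fold change was 0.92 (SE 0.0371, adjusted p = 0.00359 by limma), a 2.00-fold ratio. The ratio of RAB3A to RAB3D was 2.46 and 2.21 in the Ctrl samples and 0.779 and 0.866 in the MYCN KD samples, so their order turned over. RAB3A went from 31.4% to 19.1% of the RAB3 RPKM and RAB3D from 13.4% to 23.1%.

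RAB3C was the most abundant of the family, with RPKM of 30.4 and 35 in Ctrl against 42.2 and 36.9 in MYCN KD, and its log2 fold change of 0.27 was not called (adjusted p = 0.124 by limma). It was called without Ctrl replicate 2 (adjusted p = 0.0099) or MYCN KD replicate 2 (adjusted p = 0.0155), within a range of 0.0099 to 0.293. RAB3B lay below the filter at 0.192 and 0.192 in Ctrl against 0.367 and 0.367 in MYCN KD, from 79 to 146 reads. RPH3A, rabphilin, an effector that binds RAB3 and SNAP25 (chromosome 12, 113008184 to 113336686), had 36.4 and 34.2 in Ctrl against 71.6 and 75.9 in MYCN KD. The log2 fold change of RPH3A was 1.04 (SE 0.0545, adjusted p = 0.00365 by limma), a 2.09-fold ratio. RPH3A was thus higher in samples where RAB3A, its best-known partner, was lower.

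Some genes that share exonic bases with RAB3A or RAB3D were called in the same direction, while TMEM205 was not called. MPV17L2 shares 165 bases with RAB3A on the opposite strand and had RPKM of 36.7 and 33.3 in Ctrl against 26.9 and 29.5 in MYCN KD, lower at an adjusted p of 0.0480 by limma, a call lost without Ctrl replicate 1 (0.123) or MYCN KD replicate 1 (0.131, within 0.0104 to 0.131 over all alternatives). CCDC159 shares 144 bases with RAB3D on the opposite strand and had 2.12 and 2.09 in Ctrl against 3.95 and 4.01 in MYCN KD (adjusted p = 0.00391 by limma). TMEM205 shares the same number of bases with RAB3D on the same strand, and its RPKM was between 81.5 and 84.3 in the 4 samples. The part of these neighbours in the RAB3A and RAB3D values was not tested.

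**Figure D2:**
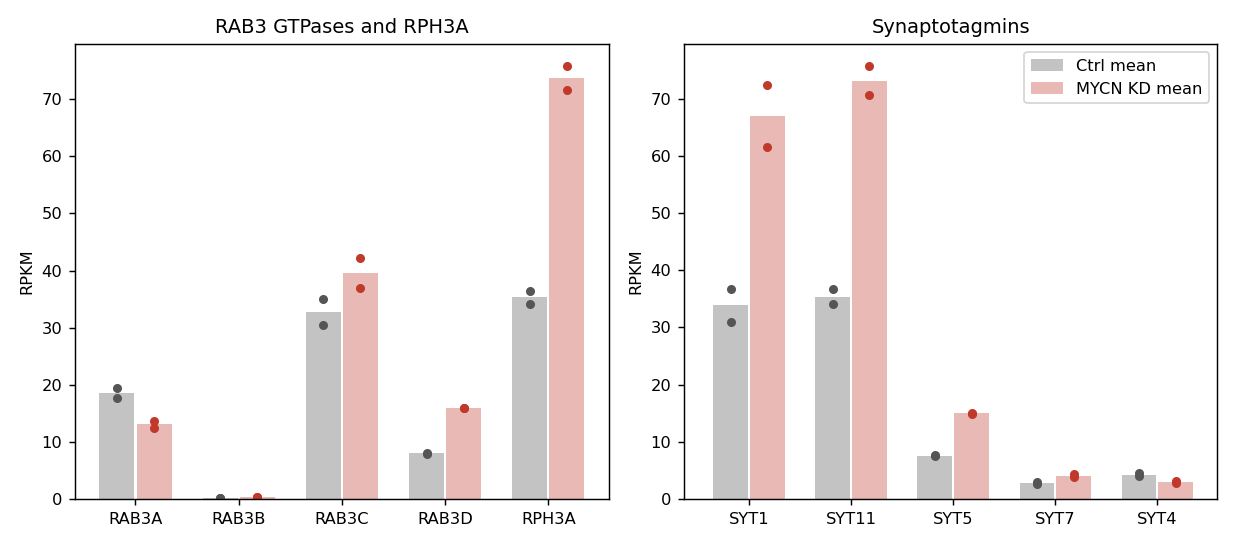
Mean RPKM of the RAB3 genes with RPH3A (left) and of the synaptotagmins (right) in Ctrl (grey bars) and MYCN KD (red bars), with dots for the 2 samples of each group. RAB3A falls from 18.6 to 13.1 RPKM while RAB3D rises from 7.97 to 15.9, and SYT4 is lower beside higher SYT1, SYT11 and SYT5.

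The genes of membrane retrieval, grouped here with the chaperone gene DNAJC5, also split. SYNJ1, synaptojanin, the lipid phosphatase that sheds the clathrin coat (chromosome 21, 34001069 to 34100351), had RPKM of 4.78 and 5.33 in Ctrl against 9.21 and 8.28 in MYCN KD (log2 fold change 0.69, SE 0.0820, adjusted p = 0.0101 by limma). SNAP91, the clathrin adaptor AP180 (chromosome 6, 84262599 to 84419410), had 7.85 and 8.59 in Ctrl against 13.1 and 12 in MYCN KD (log2 fold change 0.55, SE 0.0726, adjusted p = 0.0120 by limma). Neither pair of groups overlapped. DNM1, the neuronal dynamin that pinches vesicles off, had 18.8 and 18.3 in Ctrl against 19.6 and 20.2 in MYCN KD (log2 fold change 0.10, adjusted p = 0.127 by limma). DNAJC5, a chaperone of presynaptic proteins including SNAP25, had 35.5 and 32.3 in Ctrl against 28.2 and 30.9 in MYCN KD. It was below Ctrl in both samples but not called (log2 fold change -0.19, adjusted p = 0.122 by limma). DNM1 shares 46 exonic bases with CIZ1 on the opposite strand (91.6 to 112 RPKM), and the dynamin pseudogenes DNM1P35 and DNM1P46 were read at 0.175 to 0.539 RPKM, so its counts are uncertain to that extent. AMPH, amphiphysin, was at 0 in every sample, and SH3GL2, endophilin A1, had 1 read in 1 sample.

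**Figure D3:**
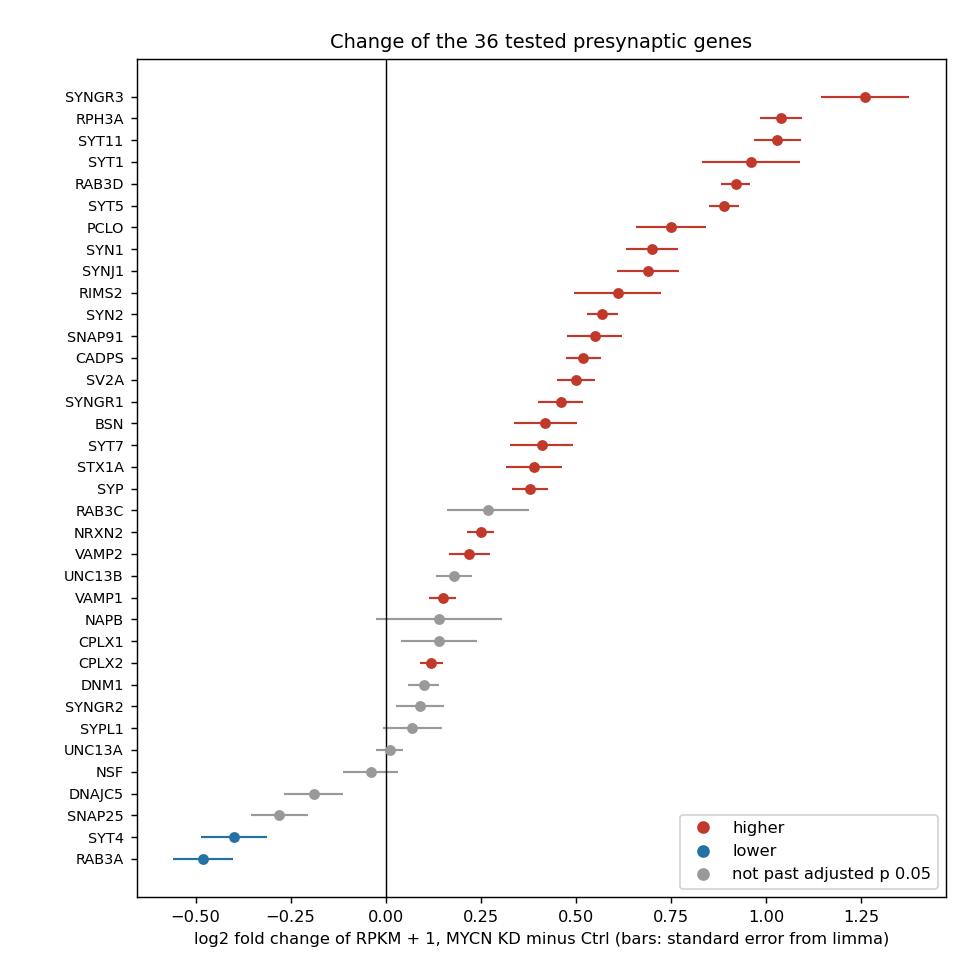
Log2 fold change of RPKM + 1 (MYCN KD minus Ctrl) of the 36 tested presynaptic genes, ordered by size, with bars for the standard error by limma. Red points are the 23 genes called higher, blue points the 2 called lower (SYT4 and RAB3A) and grey points the 11 not called.

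By role, the synaptotagmins had the highest median log2 fold change, 0.89 over 5 tested genes, followed by the synapsins with 0.63 over 2 and the RAB3 genes with RPH3A at 0.59 over 4. SV2A, the one tested SV2 gene, had 0.50. The priming and active zone genes had a median of 0.42 over 7 and the synaptophysin and synaptogyrin family 0.38 over 5. The retrieval genes with DNAJC5 had 0.33 over 4. The SNAREs (0.19 over 4) and the complexins with NSF and NAPB (0.13 over 4) were lowest. Those last 8 genes held 4 calls, all higher, and each was lost when some single sample was left out, as given above for STX1A, VAMP1, VAMP2 and CPLX2. The groups are small and the order among them was not tested. Members called higher had a median mean RPKM of 11.0 and those not called 21.2. Their median gene spans were 67435 and 63594 bases.

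**Figure D4:**
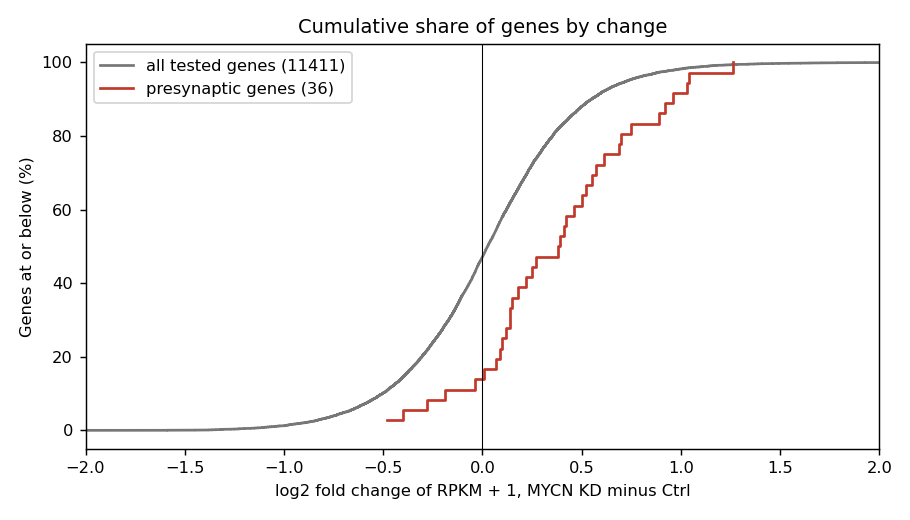
Cumulative share of genes (%) at or below a log2 fold change of RPKM + 1 (MYCN KD minus Ctrl), for all 11411 tested genes (grey) and the 36 tested presynaptic genes (red). The red curve lies to the right of the grey one, with medians of 0.38 and 0.026.

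Further genes of the same pathways were counted for comparison, from lists drawn up by function with earlier results of these data known. Of 9 tested other synaptotagmins and related calcium sensors, 5 were higher and 0 lower (median log2 fold change 0.42), led by UNC13D (0.83), SYT9 (0.57) and ESYT1 (0.52). Of 20 tested active zone and adhesion genes, 8 were higher and 2 lower (median 0.22), led by CLSTN3 (0.94), RIMBP2 (0.86) and ERC1 (0.75). One gene was lower in place of 2 without Ctrl replicate 1 or MYCN KD replicate 1. RIMBP2, which binds RIM proteins, had RPKM of 11.6 and 11.3 in Ctrl against 21.4 and 21.9 in MYCN KD. Of 25 tested endocytosis genes, 10 were higher and 1 lower (median 0.17), led by AP2A2 (0.56), EPS15 (0.55) and SH3GLB1 (0.54).

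Of 21 tested other SNAREs and their regulators, 7 were higher and 2 lower (median 0.10), led by VAMP5 (0.95), STXBP5 (0.90) and STX4 (0.57). Without MYCN KD replicate 1, 4 were higher and 0 lower, and 1 was lower without Ctrl replicate 1, Ctrl replicate 2 or MYCN KD replicate 2. Of 16 tested vesicle transporters, synucleins and proton pump subunits, 9 were higher and 1 lower (median 0.22), led by SNCG (1.40), SLC18A3 (1.13) and ATP6V1A (0.64). SNCG passed the filter only through its MYCN KD values, with a mean RPKM of 0.661 in Ctrl (17 and 19 reads) and 3.38 in MYCN KD. In this list 3 were lower without Ctrl replicate 1 or MYCN KD replicate 1, and 2 without Ctrl replicate 2 or MYCN KD replicate 2. SLC18A3, the vesicular acetylcholine transporter, had RPKM of 26.3 and 26.2 in Ctrl against 58.8 and 58.8 in MYCN KD. Over all tested genes the shares were 25.3% higher and 22.8% lower.

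On the receiving side of the synapse the counts were even, with 4 higher and 4 lower of 12 tested postsynaptic genes (median 0.11). The largest changes were all falls, in SHANK1 (-0.72), LRRTM1 (-0.69) and GPHN (-0.48), and 1 gene was higher in place of 4 without Ctrl replicate 2 or MYCN KD replicate 2. REST itself was hardly expressed, with RPKM from 0.0393 to 0.0587 in Ctrl and from 0.0910 to 0.143 in MYCN KD. The list of REST and its corepressors also held SRRM4, which is not a corepressor. Of its 9 tested genes, 1 was higher and 3 lower (median -0.17), led by KDM1A (-0.64), SRRM4 (0.44) and HDAC1 (-0.31). Only 1 of them was lower without MYCN KD replicate 2, where HDAC1 had an adjusted p of 0.0519 (range over the alternatives 0.0083 to 0.0943).

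Markers of other cell types ranged from 0 to the level of the presynaptic genes, and some moved with them. Of the 4 Schwann cell and glial markers reported here, only S100B passed the filter and it was higher, with a summed RPKM of 5.48 to 5.55 in Ctrl and 9.14 to 9.29 in MYCN KD, while the defining SOX10 did not exceed 0.0722 in any sample. Of 8 fibroblast and mesenchymal markers 4 were tested. COL1A1, which passed the filter only through its MYCN KD values, and DCN were higher. TWIST1 was the most abundant, with RPKM of 45.8 and 49.5 in Ctrl against 42.1 and 39.1 in MYCN KD, and was not called (log2 fold change -0.23, adjusted p = 0.0615 by limma), nor was LUM (-0.04, 6.64 to 8.19 RPKM). The sum of the list was 58.7 to 64.7 in Ctrl and 56.3 to 62.2 in MYCN KD, with PRRX1 at 0. Of 5 leukocyte markers 2 were tested, CD68 was higher and CD14 was not called (1.51 to 1.75 RPKM), with a sum of 5.01 to 6.03 in Ctrl and 11.0 to 13.2 in MYCN KD, while PTPRC did not exceed 0.00464. The part of these markers in the results on the presynaptic genes was not tested.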

How the data were processed

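RNA-seq samples of BE(2)C cells were used, 2 Ctrl and 2 MYCN KD, grouped by their labels. According to the study's methods and the submitters' processing notes, the authors aligned reads to hg19 with HISAT2 2.1.0, counted them on RefSeq genes with featureCounts, used DESeq2 and RUVSeq, and deposited RPKM values computed from the normalized counts. The RUVSeq variant and the strand setting of the counting are not given in the sources used here.

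RPKM of the 19908 genes above 0 in any sample were whole multiples of the value of 1 read within 0.01 reads for 100% of genes, which gave the reads behind each value. These are reads after normalization, and they cover counting error only. Genes averaging an RPKM of 1 or more were fitted as log2(RPKM + 1) with limma 3.58.1 (lmFit, eBayes with a trend) in R 4.3.3, without a block, and p-values were adjusted by the Benjamini-Hochberg method over all 11411 tested genes (threshold 0.05, two-sided). Fold changes are on the log2(RPKM + 1) scale, which understates those of genes with low values. The fit was also run on simulated reads of independent samples, which cannot show how it behaves with replicates that deviate in opposite directions. Every member is named. From each related list, at most the 3 genes with the largest change past the threshold are named. The members, lists and alternatives were chosen with earlier results of these data known.

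Alternatives were a pseudocount of 0.1, no filter, a filter of 5, the same total per sample, quantile normalization, eBayes without a trend, the replicate number as a block and each sample left out in turn. Gene positions came from GENCODE on GRCh37, and promoters from RefSeq on GRCh38.p14. Python 3.11.15, numpy 2.4.6, pandas 2.3.3 and matplotlib 3.10.9 were used. Protein sequences and the study's other assays were not analysed here. Some markers of the Schwann cell and glial list are not reported here.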

Additional observations from a re-analysis of the deposited data

How the results depend on the processing

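The alternatives listed above were chosen with earlier results of these data known, and all reuse the same 4 samples. Of the 25 called presynaptic genes, 17 were called in every such alternative that tested them. The others (SYT4, SYT7, STX1A, VAMP1, VAMP2, CPLX2, BSN and NRXN2) lost the call in at least 1. Members called higher numbered 18 to 25 in these alternatives when no sample was left out, and 17 to 20 with a sample left out. Members called lower were 1 without a filter, with the same total per sample and with the replicate block, 3 after quantile normalization, and 1 to 3 with a sample left out. The median log2 fold change of the members, 0.385, was 0.431 with a pseudocount of 0.1, 0.199 without a filter (45 members), 0.443 with the same total, 0.344 after quantile normalization and 0.339 to 0.432 with a sample left out. Over all genes, 1868 were higher with a mean RPKM of at least 5, where fewer genes were tested, and 2460 to 2781 were higher and 2153 to 2429 lower with a sample left out. NSF changed sign to 0.015 with the same total, and ranged from -0.10 to 0.019 with a sample left out (above 0 without either replicate 2). NAPB ranged from -0.014 to 0.29 with a sample left out (-0.013 and -0.014 without a replicate 1). Neither was called in any of these, and the cause was not tested.

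With the replicate number as a block, 18 members were higher and 1 lower, and over all genes 2077 were higher and 1851 lower. Replicates with the same number did not deviate together in the deposited values (correlation of deviations -0.985 over the tested genes). Those values had been through RUVSeq, whose variant is not given, so whether the numbers pair the samples cannot be told. Crossed numbers, chosen after seeing the data, take up the mirrored deviations, and the median residual SD fell from 0.0765 to 0.00197. Nearly every gene then passed, with 31 members higher and 5 lower, and 5910 and 5262 of all 11411 tested genes. These counts therefore give no support to the calls. Limma voom on the recovered reads, also chosen after seeing the data, gave 24 higher, 2 lower and a median of 0.452. Depth limits SYNGR3, which rests on 19 reads in its shallowest sample, and the 11 members below the filter. With mirrored replicates and 2 samples per group, the error of every value is poorly known. The standard errors and adjusted p-values may be too small.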
